A study of Mus musculus with 14 samples.

Results

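The 34 genes described here are those of cholesterol and fatty acid synthesis, chosen by name as members of the pathway. They comprise 5 regulators of the pathway, 16 enzymes of sterol synthesis, 8 enzymes of fatty acid synthesis and 5 genes of sterol transport, out of 55889 genes listed in the count table without DSS and 54721 in the table after DSS. Their RNA was measured by RNA sequencing in 14 C57BL/6N mice. Wild type (WT) mice were compared with MiR-29ab1-/- mice, which lack the microRNA locus MiR-29ab1 in the germline and thus in every cell, with 4 mice against 4 without treatment and 3 against 3 after 3 days of 3.5% dextran sulfate sodium (DSS), a salt given in drinking water that injures the colon epithelium. The mice were 8 to 12 weeks old. The study's methods describe colon, whereas the tissue label reads small intestinal crypts. Nothing in the labels says that same-numbered mice share a litter, and each p-value measures the spread between these mice.

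Cells make cholesterol from acetyl-CoA through the mevalonate pathway, and fatty acids from acetyl-CoA through malonyl-CoA. Transcription of the enzymes is driven by the sterol regulatory element binding proteins (SREBPs), encoded by Srebf1 and Srebf2. When membrane sterol is low, the escort protein Scap carries an SREBP to the Golgi, where it is cut and released to the nucleus. When sterol is high, Insig1 and Insig2 hold Scap in the endoplasmic reticulum, and liver X receptors raise the genes of sterol export. In the intestine the pathway serves the fast turnover of crypt cells, and transporters of the brush border govern how much dietary sterol is taken up or returned to the lumen.

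The microRNAs of the deleted locus, miR-29a and miR-29b, lie on chromosome 6 and bind 3′ UTRs through the seed, bases 2 to 8, shown in capitals. Their mature sequences (RefSeq, GRCm38.p6) are given beside that of miR-29c, which has the same seed, lies on chromosome 1 next to a second copy of miR-29b, and is outside the deleted locus.
mmu-miR-29a-3p: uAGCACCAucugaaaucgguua
mmu-miR-29b-3p: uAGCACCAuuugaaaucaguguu
mmu-miR-29c-3p: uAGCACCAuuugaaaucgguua
miR-29a-3p was at chr6:31062673-31062694 and miR-29b-3p at chr6:31063025-31063047, both on the minus strand. Reads on the 2 precursors did not exceed 1 in any of the 14 libraries, and 2 libraries held a read at all. These were MiR-29ab1-/- mice 3 and 4 without DSS, with 1 read each on the precursor of miR-29b, and no WT library held any. The counts thus could not serve as a check of the genotype labels.

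Matches to the seed in the pathway were few. TGGTGCT, the complement of the seed, was searched on the transcript strand in the longest 3′ UTR among the coding transcripts of each gene (GENCODE vM21, GRCm38). It was present in 5 of the 34 genes (14.7%), close to the 13.1% of all 20996 genes with a 3′ UTR. The 8-base match TGGTGCTA was in 0 of the 34 genes against 2.85% of all genes. The matches of the 5 genes are shown in capitals, on the transcript strand, because they are the places where a direct effect of the deleted microRNAs could be looked for.
Insig1 (chr5:28077188-28077217, plus strand): agggaggttgaTGGTGCTtaacagagatga
Hmgcs1 (chr13:119707571-119707600, plus strand): tggatgattttTGGTGCTgaacaatgacat
Fdft1 (chr14:63146565-63146594, minus strand): cctcagcagccTGGTGCTggctgggacttg
Scd1 (chr19:44397555-44397584, minus strand): tagggtgagcaTGGTGCTcagtccctgttt
Abcg5 (chr17:84658288-84658317, minus strand): gtggggcaatgTGGTGCTtggacattgtga
Such a match is a description of the letters and does not show binding. In MiR-29ab1-/- mice relative to WT, the 5 genes with a match had a median log2 fold change of 0.05 without DSS and -0.01 after DSS, and the 29 genes with no match -0.04 and -0.10. Of the 5, 80% were positive without DSS and 20% after DSS, against 41.4% and 31% of the 29. After DSS Abcg5 alone of the 5 was positive (1.24), while Hmgcs1, Insig1, Fdft1 and Scd1 were negative (-0.0093 to -0.48). Among all genes tested without DSS, the 1949 with a match of 7 or 8 bases had a median of 0.03 and 59.3% of them were positive, compared with 47.5% of the 10828 genes with no match. After DSS the 1948 genes with such a match had a median of -0.0081 and 48.2% were positive, close to the 47.2% of 10823 with none. For the 8-base match alone, which no gene of the pathway holds, 66.1% of 401 genes were positive without DSS and 56.7% of 402 after DSS.

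Libraries held 14231157 to 18185020 reads on genes without DSS and 20076719 to 23153149 after DSS, so that 3 reads corresponded to at most 0.211 CPM. CPM are counts divided by the size of the library, and those of each experiment were scaled separately by TMM factors. The 10 epithelial markers fixed for the check summed to 13445 to 28979 CPM, the 7 markers of colon epithelium to 1811 to 14381 CPM and the 8 of small intestine to 16.3 to 55.5 CPM, so that markers of the labelled small intestine were low throughout. Markers of fat cells, which also make fatty acids, summed to 2.08 to 8.10 CPM, and 3 to 6 of the 8 were at 0 reads in each mouse. Smooth muscle markers summed to at most 3.39 CPM. Mitochondrial genes held 5.71% to 13.9% of the reads in most mice, but 14.8% and 20.2% in MiR-29ab1-/- mice 1 and 2 after DSS, and the latter had the lowest scaling factor, 0.865. In such bulk RNA, fewer cells of a type and less RNA per cell cannot be told apart.

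All 34 genes passed the filter on low counts in both experiments, and Fasn, which encodes the synthase that assembles palmitate, was well expressed in every mouse. Per length, the highest level in untreated WT mice was that of Scd2, a desaturase that makes monounsaturated fatty acids, with 201 ± 74.4 RPKM (CPM divided by gene length in kilobases, SD, n = 4). Next came Acly, which makes cytosolic acetyl-CoA from citrate, with 90.8 ± 10.8 RPKM, and Hmgcs1, which makes HMG-CoA at the head of the mevalonate pathway, with 73.0 ± 32.0 RPKM. The difference between Acly and Hmgcs1 was smaller than the spread of Hmgcs1. Fasn stood at 39.8 ± 10.3 RPKM. The lowest were the transporters Npc1l1 (0.0994 RPKM), Abcg8 (0.545 RPKM), Abca1 (0.834 RPKM) and Abcg5 (1.10 RPKM). After DSS, Scd2 (119 RPKM), Acly (63.1 RPKM) and Hmgcs1 (41.8 RPKM) again led in WT mice, with Fasn at 21.1 RPKM.

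**Figure D1:**
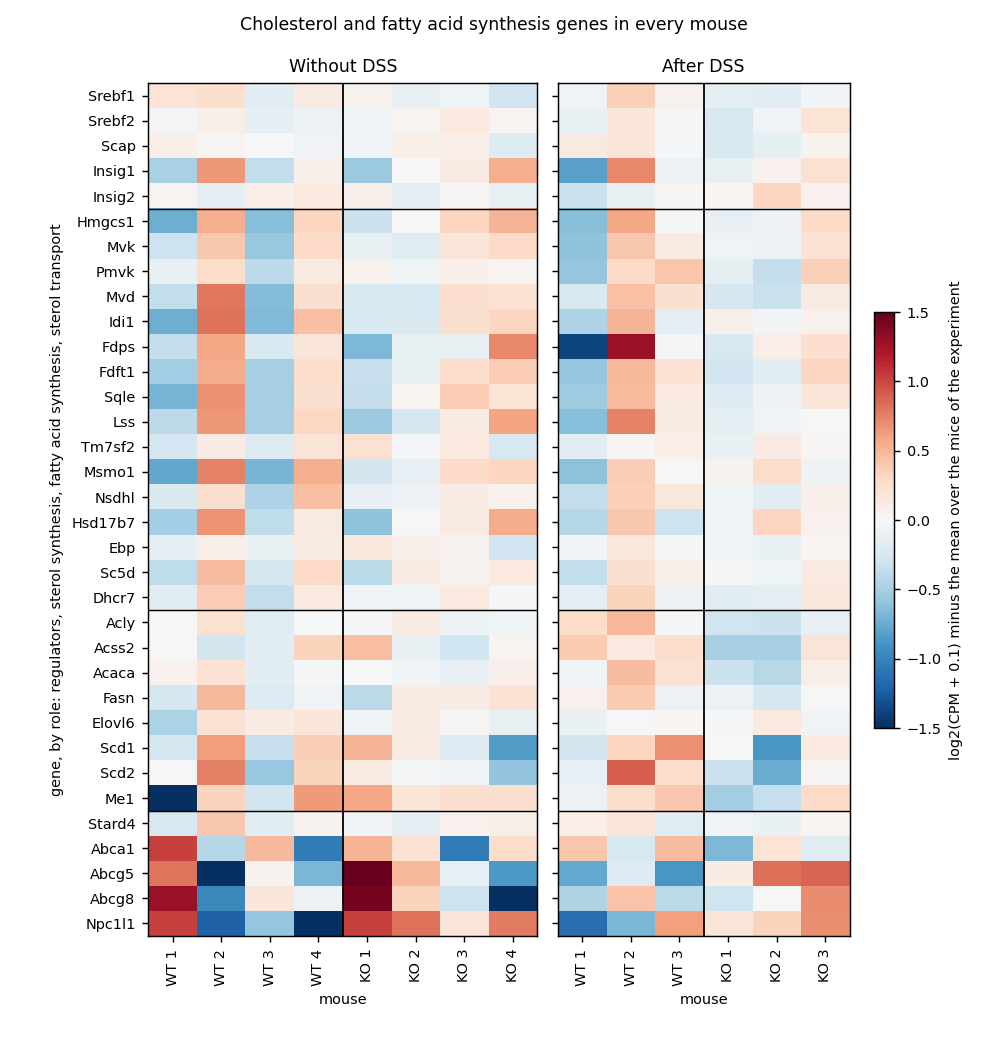
Each cell is the level of a gene in a mouse, as log2(CPM + 0.1) minus the mean over the mice of the same experiment, with genes in rows by role and mice in columns by genotype (KO, MiR-29ab1-/-); the colour scale ends at 1.5 in either direction. Columns of the sterol enzymes are alike within a mouse: WT mice 1 and 3 without DSS are low and WT mice 2 and 4 high.

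Without DSS, no gene of the pathway passed the test between MiR-29ab1-/- and WT mice. By edgeR's quasi-likelihood test with Benjamini-Hochberg adjustment, 0 of 34 passed an adjusted p of 0.05, against 3 of 15441 genes (0.0194%), and 0 of 34 an unadjusted p of 0.05, against 3.67% of all genes. The smallest adjusted p was 0.9995. DESeq2 likewise gave 0 of 34 at an adjusted p of 0.05. The genotypes overlapped in all 34 genes, while 2.03% of all genes showed no overlap. The fold change was positive for 16 genes and negative for 18, where 50.5% of all genes were negative, with a median of -0.02 on the log2 scale (-0.0016 over all genes).

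Among the regulators, ranges overlapped throughout. Srebf1 (chr11:60199089-60222581, GRCm38), whose SREBP-1 products act mainly on fatty acid genes, stood at 157, 161, 122 and 148 CPM in WT mice 1 to 4 and at 142, 126, 129.8 and 111 CPM in MiR-29ab1-/- mice 1 to 4. The log2 fold change was -0.21 (SE 0.11, 95% interval -0.46 to 0.04, unadjusted p = 0.0908 by edgeR), the smallest p of the 34. WT mouse 3 lay below 3 of the MiR-29ab1-/- mice, so the ranges overlapped. Srebf2, whose product acts mainly on sterol genes, stood at 337, 367, 309.6 and 324 CPM in WT and 329, 353, 381 and 355 CPM in MiR-29ab1-/- mice (log2 fold change 0.09, interval -0.13 to 0.30). Scap, the escort protein, lay between 72.2 and 80.1 CPM in WT and between 65.1 and 79.9 CPM in MiR-29ab1-/- mice (-0.04, interval -0.24 to 0.16).

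Of the 2 retention proteins, Insig1 is itself a target of SREBPs and varied widely. It stood at 122, 269, 133 and 179.7 CPM in WT mice and at 116, 169.9, 187 and 249.5 CPM in MiR-29ab1-/- mice (log2 fold change 0.04, SE 0.30, interval -0.64 to 0.71). The lowest and the highest mouse of each genotype differed by more than the genotype means. Insig2 was steady, at 36.0, 31.9, 37.6 and 38.8 CPM in WT and 37.0, 32.0, 35.6 and 32.4 CPM in MiR-29ab1-/- mice (-0.07, interval -0.29 to 0.14). Fasn stood at 356, 601, 371 and 413 CPM in WT and at 325, 465, 463 and 498 CPM in MiR-29ab1-/- mice. The Fasn log2 fold change of 0.01 (SE 0.19, interval -0.41 to 0.42) was far smaller than the spread within a genotype, and its sign depended on which mouse was left out.

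**Figure D2:**
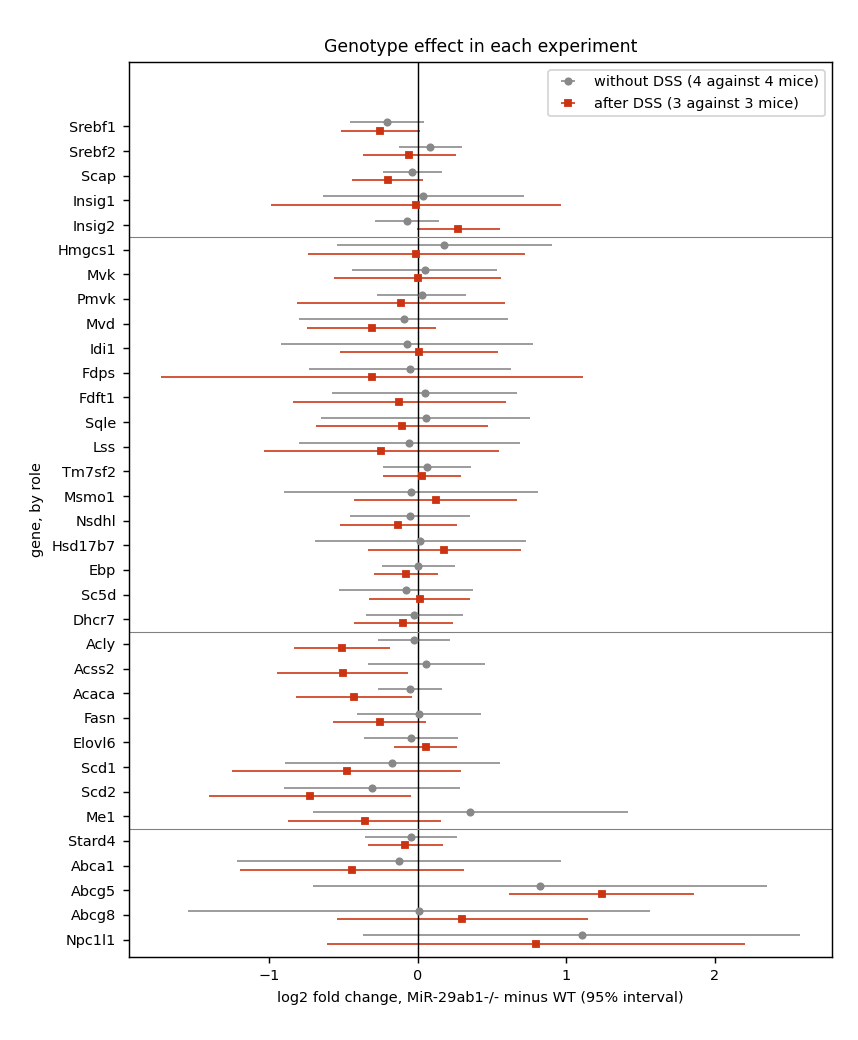
Points are log2 fold changes of MiR-29ab1-/- against WT mice with 95% intervals from the edgeR fit, for the 34 genes by role, without DSS (4 against 4 mice) and after DSS (3 against 3). Every interval without DSS crosses 0; after DSS those of Acly, Acss2, Acaca and Scd2 lie below 0 and that of Abcg5 above 0, at unadjusted levels.

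What did vary without DSS was the level of the sterol enzymes from mouse to mouse. Summed over the 16 enzymes, WT mice 1 to 4 had 1069, 2240.2, 1076 and 1875 CPM, and MiR-29ab1-/- mice 1 to 4 had 1278, 1461, 1789 and 1872 CPM. WT mice 1 and 3 both lay under WT mice 2 and 4 in 16 of 16 enzymes, and MiR-29ab1-/- mice 1 and 2 both lay under mice 3 and 4 in 11 of 16. The highest WT mouse exceeded the lowest by a median of 2.04 times (1.21 to 2.94 over the enzymes), the highest MiR-29ab1-/- mouse by 1.45 times (1.10 to 2.65). The pattern spanned the pathway from its first steps to its last. Hmgcs1 ranged from 204 to 496 CPM among WT mice, Idi1, which isomerises the isoprene unit, from 42.3 to 124 CPM, and Sqle, the epoxidase that commits squalene to sterols, from 102 to 265 CPM. Msmo1, a demethylase of the later steps, ranged from 93.9 to 271 CPM, and Dhcr7, the last reductase, from 80.0 to 135 CPM.

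The SD within a genotype, on the log2 CPM scale, had a median of 0.47 over the 16 enzymes and 0.23 over all genes tested, or 0.45 and 0.16 among genes with a mean log2 CPM of at least 5. For the regulators it was 0.11, for the fatty acid enzymes 0.30 and for the transport genes 0.91. The 4 least expressed transporters went the other way from the enzymes in WT mice, Abca1, which loads cellular cholesterol onto apolipoprotein A-I, at 15.2, 5.48, 10.4 and 3.504 CPM being highest in mouse 1. Epithelial markers moved with the enzymes: they summed to 13501, 17137, 13673 and 17690 CPM in WT mice 1 to 4 and to 13445, 14964, 17333 and 15327 CPM in MiR-29ab1-/- mice 1 to 4. Macrophage markers summed to 22.6, 8.75, 16.3 and 7.17 CPM in WT mice, and mitochondrial genes held 13.9%, 6.38%, 11.1% and 9.72% of their reads. In MiR-29ab1-/- mice 1 to 4 the macrophage markers summed to 12.2, 6.14, 10.1 and 19.8 CPM, and the mitochondrial share was 8.14%, 5.71%, 7.09% and 12.3%. Mouse 4 was the highest of these in both measures and also in the sterol enzymes, whereas among WT mice the 2 with the most macrophage RNA were the lowest in the enzymes. The part of these in the pattern was not tested.

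**Figure D3:**
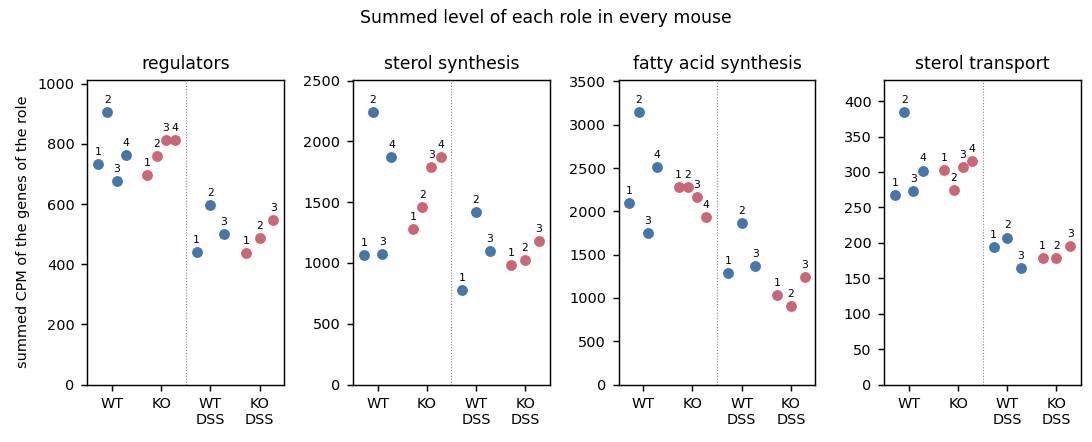
Summed CPM of the genes of each role in every WT and MiR-29ab1-/- (KO) mouse, numbered within its group, with CPM scaled separately in each experiment. The sterol enzymes of WT mice without DSS lie at 1069 and 1076 CPM (mice 1 and 3) or at 2240.2 and 1875 CPM (mice 2 and 4); those of the MiR-29ab1-/- mice after DSS lie within the range of WT mice.

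Promoters of the sterol enzymes shared a motif that the choice of genes had not used. In windows of 300 bases (250 before to 50 after each RefSeq start, GRCm38.p6), 28 of the 34 genes were matched. CCAAT, the box bound by NF-Y, a partner of SREBPs on many promoters, was found on either strand in 24 of these 28 (85.7%), against 41.1% of 27025 genes. It was present in 13 of 13 matched sterol enzymes, 4 of 5 regulators, 4 of 6 fatty acid enzymes and 3 of 4 transport genes. TCACNCCAC, a core of the sterol regulatory element, was found on either strand in 1 of 28 genes, Hmgcs1, against 1.44% of all genes. Only this form was searched, and only in these windows. Its absence does not show that a gene lacks a sterol regulatory element. The windows below show both motifs in capitals, with the strand that is printed, for enzymes from the start to the end of the pathway and for Fasn.
Hmgcs1 (TCACNCCAC, chr13:119690204-119690233, plus strand): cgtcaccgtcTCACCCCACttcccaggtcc
Mvk (CCAAT, chr5:114444242-114444271, minus strand): gtcttcctgaggCCAATcagagagctggag
Lss (CCAAT, chr10:76531530-76531559, minus strand): atgcgagctcggCCAATcagagcatcacca
Msmo1 (CCAAT, chr8:64733657-64733686, minus strand): ccttagcacggaCCAATcactgcacggcga
Sc5d (CCAAT, chr9:42264308-42264337, plus strand): gcaggcagccggCCAATcagcagccggcgc
Fasn (CCAAT, chr11:120824592-120824621, minus strand): cggcctcggtgtCCAATtggtttcgatgtg
Mvk, mevalonate kinase, stood at 35.3, 58.3, 29.7 and 53.7 CPM in WT mice. Lss, which closes the sterol ring, stood at 74.0, 153, 68.7 and 119.6 CPM, and Sc5d, a desaturase of the last steps, at 60.6, 109, 66.1 and 96.3 CPM. All 3 had the low and high pairs of mice described above, as did all 16 sterol enzymes, so the pairs say nothing about the motif. A match says that the letters are there and not that a factor was bound.

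After DSS, no gene of the pathway passed the adjusted threshold by edgeR either. At an unadjusted p of 0.05, the MiR-29ab1-/- mice had lower levels of 4 fatty acid enzymes and higher levels of 1 sterol transporter. By edgeR with Benjamini-Hochberg adjustment, 0 of 34 genes passed an adjusted p of 0.05, against 0.0134% of 14908 genes, with a smallest adjusted p of 0.646. At the unadjusted threshold, 5 of 34 genes passed against 7.23% of all genes. The 4 lower genes compare with 3.25% of all genes and the 1 higher gene with 3.98%. The fold change was negative in 24 of 34 genes, against 51% of all genes, with a median of -0.10 on the log2 scale (-0.01 over all genes). The genotypes did not overlap in 3 of 34 genes, against 11.6% of all genes. Abcg5 and Insig2 were higher in every MiR-29ab1-/- mouse than in any WT mouse (5.33% of all genes), and Acly was lower (6.28% of all genes).

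The fatty acid enzymes accounted for all 4 of the lower genes. Their fold change was negative in 7 of 8, with a median of -0.45 on the log2 scale. Summed over the 8, WT mice 1 to 3 had 1287, 1870 and 1364 CPM and MiR-29ab1-/- mice 1 to 3 had 1034, 908 and 1238 CPM. Every MiR-29ab1-/- mouse lay below the lowest WT mouse in the sum, mouse 3 by the least. The sum follows mainly the most expressed of the 8, such as Scd2. In the mean log2 CPM, where each gene counts alike, the genotypes overlapped. It was 6.43, 6.79 and 6.64 in WT mice 1 to 3 and 6.16, 6.00 and 6.49 in MiR-29ab1-/- mice 1 to 3.

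Acly (chr11:100476353-100528000), ATP citrate lyase, which supplies acetyl-CoA to both branches of the pathway, stood at 336, 392 and 272 CPM in WT mice and at 226, 222 and 254 CPM in MiR-29ab1-/- mice. For Acly the log2 fold change was -0.51 (SE 0.14, 95% interval -0.83 to -0.19, unadjusted p = 0.00597 and adjusted p = 0.646 by edgeR). The 3 MiR-29ab1-/- mice lay close together below all WT mice. Acss2 (chr2:155517948-155585724), which makes acetyl-CoA from acetate, stood at 132, 111 and 119.8 CPM in WT and 70.8, 70.8 and 114 CPM in MiR-29ab1-/- mice (-0.50, SE 0.19, unadjusted p = 0.0300 and adjusted p = 0.655 by edgeR). MiR-29ab1-/- mouse 3 lay within the WT range. Without WT mouse 1 or 3 or MiR-29ab1-/- mouse 1 or 2, the unadjusted p for Acss2 was 0.0651 to 0.0951 by edgeR. Without MiR-29ab1-/- mouse 3 Acss2 had a log2 fold change of -0.77 and passed the adjusted threshold (adjusted p = 0.0351 by edgeR). Exons of Acss2 overlap genes on the opposite strand, Ggt7 and Gss among them, and the strand setting of the counting is not given.

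Acaca (chr11:84129672-84401651), the carboxylase that makes malonyl-CoA, stood at 39.5, 56.4 and 47.8 CPM in WT and 32.8, 30.5 and 43.6 CPM in MiR-29ab1-/- mice (log2 fold change -0.43, SE 0.17, unadjusted p = 0.0356 and adjusted p = 0.655 by edgeR). Again mouse 3 lay within the WT range. Scd2 stood at 449, 906 and 588 CPM in WT and 391, 291 and 493 CPM in MiR-29ab1-/- mice (-0.72, SE 0.29, unadjusted p = 0.0401 and adjusted p = 0.663 by edgeR). WT mouse 2 was the highest in both genes. Without it, the unadjusted p by edgeR was 0.133 for Acaca (-0.30) and 0.122 for Scd2 (-0.41), and without WT mouse 3 or MiR-29ab1-/- mouse 1 or 2 it was 0.0707 to 0.118 for Acaca and 0.0612 to 0.109 for Scd2. The p of Acly stayed under 0.05 with each of the 6 mice left out.

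The other 4 fatty acid enzymes did not pass. Fasn (chr11:120805846-120824547) stood at 219, 275 and 198 CPM in WT and at 197, 174 and 209 CPM in MiR-29ab1-/- mice (-0.26, SE 0.14, interval -0.57 to 0.06, unadjusted p = 0.0972 by edgeR), with mouse 3 above the lowest WT mouse. Scd1, the close paralog of Scd2, had a log2 fold change of -0.48 (unadjusted p = 0.185 by edgeR), at 13.9 to 27.3 CPM in WT and 9.16 to 18.7 CPM in MiR-29ab1-/- mice. Reads of such paralogs may be shared between them. Me1, malic enzyme, a source of NADPH, had -0.36 (unadjusted p = 0.150 by edgeR), and Elovl6, the elongase acting on palmitate, 0.05.

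MiR-29ab1-/- mice 1 and 2, with the lowest sums of fatty acid enzymes, were those with mitochondrial shares of 14.8% and 20.2%, and mouse 3, with the highest, had 7.43%. Macrophage markers summed to 27.3, 42.2 and 15.3 CPM in MiR-29ab1-/- mice 1 to 3 and to 15.7, 22.3 and 28.9 CPM in WT mice, and epithelial markers to 26678, 28979 and 24208 CPM and to 23203, 25146 and 25652 CPM. Of 5 T cell markers, 1 was higher in MiR-29ab1-/- mice at the unadjusted threshold, against 3.98% of all genes. The 5 summed to 25.3 to 53.4 CPM there and 16.8 to 36.4 CPM in WT mice. Of 4 B cell markers, 2 were tested and both were negative, with a median of -1.32 on the log2 scale, and neither passed. The 7 markers of colon epithelium summed to 9999, 9720.2 and 12717 CPM in MiR-29ab1-/- mice 1 to 3 and to 10591, 13255 and 14381 CPM in WT mice, 5 of the 7 being negative with a median of -0.29 on the log2 scale, and none passed an unadjusted p of 0.05. Fibroblast markers summed to 34.1, 44.5 and 14.8 CPM in MiR-29ab1-/- mice and to 23.0, 18.8 and 31.0 CPM in WT mice. Of the 4 tested, 2 were positive and 2 negative, with a median of 0.14 on the log2 scale. The collagen gene Col3a1 alone was higher (unadjusted p = 0.00365 by edgeR), 1 of 4 against 3.98% of all genes. MiR-29ab1-/- mice 1 and 2 were thus the lowest of the 6 in the sum of colon epithelium markers and the highest in that of fibroblast markers. The part of these markers and of the mitochondrial share in the lower levels of the enzymes was not tested. With the score of the 10 epithelial markers, not of the colon markers, as a covariate the 4 values were -0.37, -0.33, -0.40 and -0.68. None of the 4 then passed an unadjusted p of 0.05 by edgeR. Calls among all genes fell as well in that model, from 1078 to 334, so the lost calls are not particular to these enzymes.

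**Figure D4:**
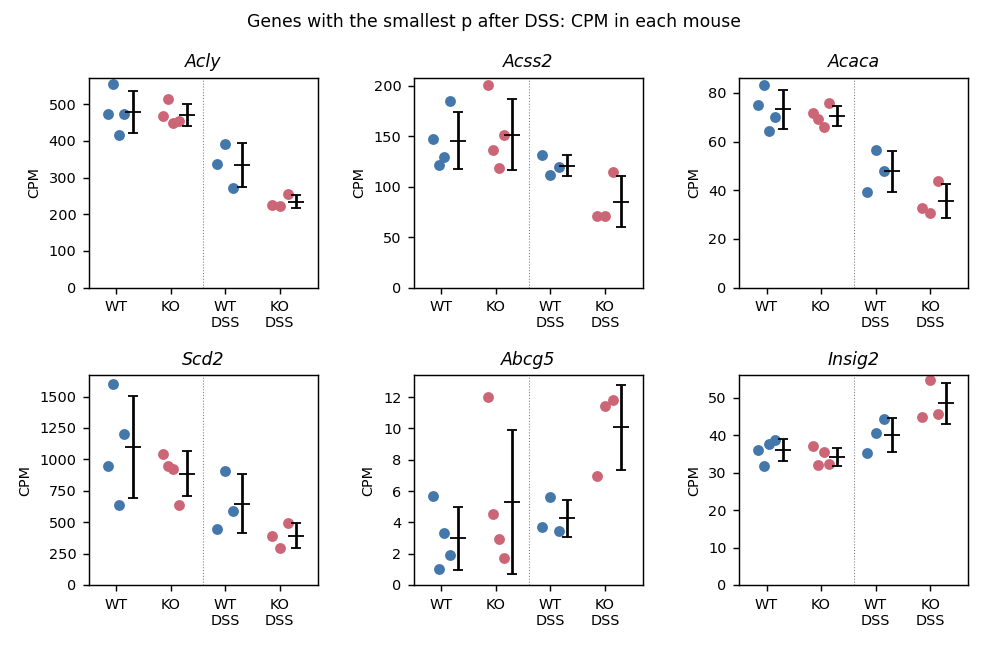
CPM in each WT and MiR-29ab1-/- (KO) mouse without DSS (left of the dotted line, 4 against 4) and after DSS (right, 3 against 3), as points with mean ± SD, for the 6 genes of the pathway that passed an unadjusted p of 0.05 or did not overlap between genotypes after DSS; CPM were scaled separately in each experiment. After DSS, Acly is lower, and Abcg5 and Insig2 are higher, in all 3 MiR-29ab1-/- mice than in any WT mouse, whereas Acss2, Acaca and Scd2 overlap through mouse 3.

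Among the sterol enzymes, 0 of 16 passed an unadjusted p of 0.05 after DSS. Their fold change was negative in 11 of 16, with a median of -0.09 and a range from -0.31 (Mvd, the decarboxylase that makes isopentenyl diphosphate) to 0.18 (Hsd17b7, a ketoreductase). Summed over the 16, WT mice had 778, 1417 and 1100 CPM and MiR-29ab1-/- mice 984, 1022 and 1179 CPM. WT mouse 1 was the lowest WT mouse in 16 of 16 enzymes, and mouse 2 the highest in 14. In 12 of 16, all 3 MiR-29ab1-/- mice lay between the lowest and the highest WT mouse. The highest mouse exceeded the lowest by a median of 1.97 times in WT and 1.26 times in MiR-29ab1-/- mice, a difference in spread that was not tested.

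The regulators after DSS had log2 fold changes of -0.25 to 0.27. Insig2 (chr1:121304353-121332589), which unlike Insig1 is not driven by SREBPs, stood at 35.2, 40.7 and 44.3 CPM in WT and at 44.9, 54.8 and 45.7 CPM in MiR-29ab1-/- mice (0.27, SE 0.12, unadjusted p = 0.0523 and adjusted p = 0.668 by edgeR). MiR-29ab1-/- mice 1 and 3 lay just above the highest WT mouse. Srebf1 stood at 67.8, 90.3 and 73.4 CPM in WT and 63.4, 62.7 and 68.5 CPM in MiR-29ab1-/- mice (-0.25, SE 0.12, unadjusted p = 0.0634 by edgeR), overlapping through mouse 3. Scap stood at 61.4, 63.4 and 55.3 CPM in WT and at 47.7, 51.0 and 58.0 CPM in MiR-29ab1-/- mice (-0.20, unadjusted p = 0.0909 by edgeR). Srebf2 lay between 241 and 296 CPM in WT and between 221 and 299.9 CPM in MiR-29ab1-/- mice (-0.05), and Insig1 between 36.9 and 107 CPM and between 60.2 and 75.9 CPM (-0.01, interval -0.99 to 0.96). The signs of Srebf2 and Insig1 turned when WT mouse 2 or MiR-29ab1-/- mouse 1 was left out.

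Of the sterol transport genes, Abcg5 (chr17:84658234-84683011), which with Abcg8 forms the pump that returns sterols to the gut lumen, had the smallest p of the 34 after DSS. It stood at 3.72, 5.60 and 3.46 CPM in WT and at 6.94, 11.4 and 11.8 CPM in MiR-29ab1-/- mice (log2 fold change 1.24, SE 0.28, 95% interval 0.61 to 1.86, unadjusted p = 0.0015 and adjusted p = 0.646 by edgeR). All MiR-29ab1-/- mice lay above all WT mice. Its 3′ UTR holds 1 of the 7-base seed matches listed above, which do not show binding. The adjusted p was 0.0132 with DESeq2 and 0.00391 by edgeR with no filter on low counts. In the model over all 14 mice the unadjusted p by edgeR was 0.0736. Abcg8, the other subunit, stood at 1.96, 3.72 and 2.04 CPM in WT and 2.21, 2.75 and 4.53 CPM in MiR-29ab1-/- mice (0.30, interval -0.54 to 1.15), with overlap. Exons of Abcg5 and Abcg8 overlap on opposite strands, so that their reads cannot be told apart if strand was not used. Without DSS, Abcg5 had varied from 1.01 to 5.66 CPM in WT and from 1.72 to 12.01 CPM in MiR-29ab1-/- mice (0.82, interval -0.71 to 2.35).

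The remaining transport genes did not pass. Npc1l1, the importer of dietary sterol, was near the limit of detection, at 0.125 to 0.664 CPM in WT and 0.463 to 0.707 CPM in MiR-29ab1-/- mice (0.80, interval -0.61 to 2.21). Abca1 had a log2 fold change of -0.44 (interval -1.20 to 0.31) and Stard4, a carrier of sterol between membranes, -0.08 (interval -0.34 to 0.17).

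Lists of 20 other sterol genes and 20 other fatty acid and lipid genes were examined beside the 34. Without DSS, 0 of 20 of the former and 1 of 19 tested of the latter passed an unadjusted p of 0.05 by edgeR, against 3.67% of all genes, and none the adjusted threshold. That gene was Pparg, a nuclear receptor of colon epithelium and fat cells, at 74.65, 73.8, 79.2 and 86.8 CPM in WT and 60.0, 59.2, 67.2 and 66.7 CPM in MiR-29ab1-/- mice (-0.31, SE 0.09, unadjusted p = 0.00484 by edgeR). All 4 MiR-29ab1-/- mice lay below all WT mice, and after DSS the genotypes overlapped (-0.02). After DSS, 4 of 20 other sterol genes were lower and 0 higher at an unadjusted p of 0.05, against 3.25% and 3.98% of all genes. They were Mylip, which degrades lipoprotein receptors, Npc1, which releases cholesterol from lysosomes, Scarb1, a lipoprotein receptor, and Soat1, which esterifies cholesterol.

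Mylip stood at 18.6, 14.8 and 20.0 CPM in WT and 10.2, 8.85 and 13.97 CPM in MiR-29ab1-/- mice (-0.69, SE 0.20, unadjusted p = 0.00665 by edgeR). Npc1 stood at 31.1, 36.4 and 37.9 CPM in WT and 25.2, 26.9 and 28.9 CPM in MiR-29ab1-/- mice (-0.38, SE 0.11, unadjusted p = 0.00904 by edgeR). Scarb1 stood at 20.2, 20.8 and 22.7 CPM against 12.96, 10.2 and 19.2 CPM (-0.59, unadjusted p = 0.0226 by edgeR), and Soat1 had a log2 fold change of -0.29 (unadjusted p = 0.0314 by edgeR). The MiR-29ab1-/- mice lay below all WT mice in Mylip, Npc1 and Scarb1, 3 of 20 against 6.28% of all genes. Of the fatty acid and lipid genes, 1 of 19 was higher, Dgat2, which makes triglyceride (0.39, unadjusted p = 0.0414 by edgeR), against 3.98% of all genes, and in 2 of 19, Elovl1 and Agpat2, all MiR-29ab1-/- mice lay above all WT mice, against 5.33%. None of these passed the adjusted threshold. Without WT mouse 3 or MiR-29ab1-/- mouse 1 or 2, the unadjusted p rose to between 0.0614 and 0.139 for Scarb1, Soat1 and Dgat2, as it did for Soat1 and Dgat2 without WT mouse 1 and for Dgat2 without WT mouse 2.

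Whether the effect of genotype differed between the experiments was tested over all 14 mice. By edgeR, 2 of 34 genes passed an unadjusted p of 0.05, against 3.96% of 16196 genes, and 0 of 34 passed the adjusted threshold, as did 0 (0%) of all genes by edgeR, of which 641 had an unadjusted p under 0.05. DESeq2 likewise gave 0 of 34 at an adjusted p of 0.05. For Acly the effect after DSS minus that without DSS was -0.48 on the log2 scale (SE 0.19, unadjusted p = 0.0212 by edgeR), and for Insig2 0.35 (SE 0.15, unadjusted p = 0.0373 by edgeR), both with an adjusted p of 0.985. Without DSS, Acly had stood at 473, 554, 416 and 474 CPM in WT and at 468, 513, 448 and 455 CPM in MiR-29ab1-/- mice. With WT mouse 2 of the DSS experiment left out, the unadjusted p for Acly was 0.0678 by edgeR. For Insig2 it was 0.0509 to 0.123 without WT mouse 3 or 4 or MiR-29ab1-/- mouse 2 or 4 of the first experiment, or WT mouse 1 or 2 or MiR-29ab1-/- mouse 2 of the DSS experiment. Acss2, Acaca, Scd2 and Abcg5 did not pass, so their effects were not shown to differ between the experiments.

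Between the experiments, several genes of the pathway had other levels after DSS than without it, in both genotypes. DSS, the experiment and the gene models of the table, and possibly the sequencing run, changed together, and their effects cannot be told apart. On CPM scaled over all 14 mice, 9 of 34 genes differed in WT mice at an adjusted p of 0.05 by edgeR, 3 higher and 6 lower, against 37.9% of all genes. In MiR-29ab1-/- mice 14 of 34 differed, 2 higher and 12 lower, against 45.6%. Of all genes, 20% were higher and 17.9% lower in WT mice, and 23% and 22.6% in MiR-29ab1-/- mice.

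Among the regulators, Srebf1 fell in both genotypes, from a mean of 135 to 87.0 CPM in WT mice (log2 fold change -0.63, SE 0.12, adjusted p = 0.00119 by edgeR) and from 117 to 73.4 CPM in MiR-29ab1-/- mice (-0.67, adjusted p = 0.000532 by edgeR). Insig1 fell from 162 to 77.2 CPM and from 165 to 76.9 CPM (-1.07 and -1.10, adjusted p = 0.0435 and 0.0324 by edgeR). Insig2 rose, from 33.0 to 45.2 CPM and from 31.4 to 54.8 CPM (0.45 and 0.80, adjusted p = 0.00479 and 4.3e-05 by edgeR). The 2 retention proteins thus moved in opposite directions. The calls of Srebf1 and Insig2 held with each of the 14 mice left out, whereas Insig1 lost its call without 9 of them in WT (adjusted p up to 0.14 by edgeR), namely WT mice 2 and 4 without DSS and 1 and 3 after DSS and MiR-29ab1-/- mice 2 and 3 without DSS and 1 to 3 after DSS. In MiR-29ab1-/- mice it lost it without MiR-29ab1-/- mice 2 to 4 without DSS or 1 to 3 after DSS (adjusted p up to 0.103 by edgeR). Srebf2 and Scap did not pass in either genotype.

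Of the sterol enzymes, Fdps, the farnesyl diphosphate synthase, fell from 11.1 to 3.37 CPM in WT mice and from 10.6 to 2.73 CPM in MiR-29ab1-/- mice (-1.72 and -1.96, adjusted p = 0.0181 and 0.00813 by edgeR). Its level was low for an enzyme of this pathway, 2.87 RPKM in untreated WT mice, and its exons overlap those of a gene on the same strand, so that its counts may not hold all of its reads. Tm7sf2 also fell in both genotypes, but its length differs between the 2 tables. Lss fell in MiR-29ab1-/- mice (-1.15, adjusted p = 0.0264 by edgeR) and Ebp rose in WT mice (0.31, adjusted p = 0.0443 by edgeR). The other 12 sterol enzymes passed in neither genotype. Without WT mouse 3 after DSS, Fdps had an adjusted p of 0.0761 by edgeR in WT mice. Tm7sf2 lost its call in WT without WT mouse 4 without DSS or 1 or 2 after DSS (adjusted p up to 0.0833 by edgeR) and in MiR-29ab1-/- mice without mouse 1 after DSS (0.0558). Lss lost its call without MiR-29ab1-/- mouse 4 without DSS or any of 1 to 3 after DSS (up to 0.0805 by edgeR), and Ebp without any of 8 mice, 5 of them WT (WT mice 1 and 3 without DSS and all 3 after DSS) and 3 MiR-29ab1-/- (mice 2 and 3 without DSS and 1 after DSS; up to 0.112 by edgeR).

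Of the fatty acid enzymes, Fasn fell from 399.8 to 259.9 CPM in WT mice (-0.62, SE 0.19, adjusted p = 0.0196 by edgeR) and from 401 to 218 CPM in MiR-29ab1-/- mice (-0.88, adjusted p = 0.00201 by edgeR). Elovl6 rose from 71.1 to 98.3 CPM and from 68.7 to 102 CPM (0.47 and 0.57, adjusted p = 0.0155 and 0.00359 by edgeR). In MiR-29ab1-/- mice Acly (-0.71, adjusted p = 0.000627 by edgeR), Acaca (-0.68, adjusted p = 0.00116 by edgeR), Scd1 (-1.16) and Scd2 (-0.88) fell as well, the gene lengths of the last 2 differing between tables. Of these 4, Acly alone had an unadjusted p under 0.05 in the test of the interaction, where Scd1, Scd2 and Acaca were not shown to differ from WT mice. Fasn lost its call in WT mice without WT mouse 2 without DSS or 1 or 3 after DSS (adjusted p up to 0.0936 by edgeR), and Elovl6 without WT mouse 3 after DSS (0.0522 by edgeR). Scd1 and Scd2 lost theirs without MiR-29ab1-/- mouse 1 or 2 of either experiment, and Scd2 also without mouse 3 of the first (up to 0.103 and 0.148 by edgeR). Of the transport genes, Stard4 fell in both genotypes (-0.42 and -0.45) and Abca1 in MiR-29ab1-/- mice (-1.53, adjusted p = 0.0179 by edgeR). Stard4 lost its call in WT mice without WT mouse 2 or 4 without DSS or 1 or 3 after DSS (adjusted p up to 0.153 by edgeR) and in MiR-29ab1-/- mice without mouse 1 or 2 after DSS (up to 0.0735 by edgeR), and Abca1 without MiR-29ab1-/- mouse 1 or 3 after DSS (up to 0.0756 by edgeR).

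Of the 10 epithelial markers, 9 were higher after DSS at an adjusted p of 0.05 by edgeR in each genotype. Medians over the 10 were 0.68 and 0.84 on the log2 scale, while 2 and 3 of 7 macrophage markers were higher and 2 and 3 of 7 proliferation markers were lower. Of 7 colon epithelium markers, 4 were higher in WT and 3 in MiR-29ab1-/- mice, against 20% and 23% of all genes, and 6 were positive in each. Their medians were 0.87 and 0.65, and the largest rises 6.58 and 6.23. Scaled within each experiment, they summed to 1811 to 4951 CPM without DSS and 9720.2 to 14381 CPM after it. The 1 fat cell marker tested rose by 1.25 and 1.63. The part of these markers in the differences between experiments was not tested. The epithelial score is the mean log2 CPM of the 10 epithelial markers. Scaled within each experiment, it was 9.83 to 10.22 without DSS and 10.42 to 10.69 after DSS, with no overlap. The score thus follows the experiment, and the 2 can hardly be told apart in a model. With the epithelial score as a covariate, 0 genes of the 34 were higher and 3 lower in WT mice, and 1 higher and 4 lower in MiR-29ab1-/- mice. The values of Fasn were then -1.47 and -1.84. The sign was reversed for Elovl6 (-0.22 and -0.21) and, in MiR-29ab1-/- mice, for Abca1 (1.74). Srebf1 (-0.77 and -0.83, adjusted p = 0.195 and 0.236 by edgeR) and Insig2 (0.32 and 0.65, adjusted p = 0.601 and 0.309 by edgeR) no longer passed in either genotype. None of the 9 genes of WT mice kept its call, and of the 14 of MiR-29ab1-/- mice Fasn alone did. Because the score follows the experiment, these lost calls and reversed signs do not say whether the genes differ.

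**Figure D5:**
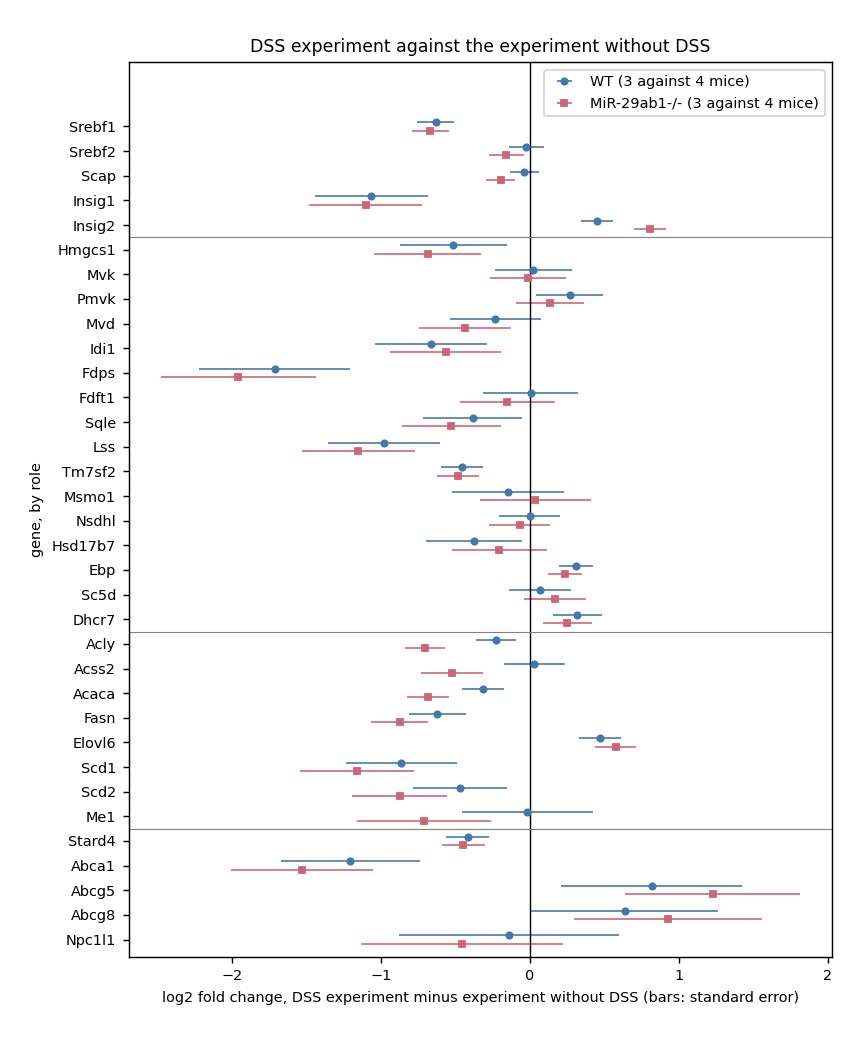
Log2 fold change ± SE of the DSS experiment against the experiment without DSS for the 34 genes by role, in WT and MiR-29ab1-/- mice, from the edgeR fit over all 14 mice. Fdps, Insig1, Fasn and Srebf1 lie below 0, and Insig2 and Elovl6 above 0, in both genotypes; DSS and the experiment cannot be told apart.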

How the data were processed

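The deposited values were counts of reads on each gene, not normalized, with 1 table for each experiment. HISAT2 and DESeq2 are named in the submitters' processing notes, and libraries were made with a directional kit. The counting tool, its strand setting, the genome build and versions are not given in the sources used here. In the table without DSS, all 34 genes have the same start and end as in GENCODE vM21 (GRCm38). In the table after DSS, Tm7sf2, Scd1 and Scd2 have another start or end. In GENCODE vM21, 14 of the 34 share an exon with another gene and 4 of these on the same strand (Srebf1, Fdps, Tm7sf2 and Scd2). A further 14 columns of per-sample FPKM values and the columns of the authors' own comparison (fold changes and p-values) were not used. The 34 genes and the lists were chosen with earlier results of these data known.

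Counts were filtered by filterByExpr of edgeR 4.0.16 (R 4.3.3; minimum count 10, minimum total 15), scaled by TMM, and tested by glmQLFit and glmQLFTest (robust) with Benjamini-Hochberg adjustment over all genes tested, within each table, or over the 54189 genes of both tables for the interaction and the comparison of experiments. RPKM values were computed from the counts and the deposited gene lengths. No gene of the pathway failed the filter, so the exact permutation test planned for such genes was not needed. Genes given in full were Srebf1, Srebf2, Scap, Insig1, Insig2 and Fasn, those with an unadjusted p under 0.05 or no overlap of genotypes, and the largest rises and falls between experiments. Genes named to show ranges, spread and promoter motifs were chosen after their values were seen. The scripts were tested on simulated data. Replicates differed beyond sampling noise, so that none was deposited more than once. Replicate numbers were taken from the labels or, after DSS, from the column names.

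Alternatives were DESeq2 1.42.0, RLE or upper quartile factors, no filter or at least 10 reads in every mouse, an epithelial or adipocyte score as covariate, all 14 mice in 1 model, genes of the same length in both tables, a replicate block, each mouse left out, and, chosen after seeing the data, mitochondrial genes left out.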

Additional observations from a re-analysis of the deposited data

Results flagged for a closer look

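In 3 of the 68 groups of 4 mice examined (34 genes in each genotype without DSS), 1 mouse stood apart from the other 3 by more than Dixon's 95% critical value, which chance gives in about 5% of groups. Dhcr7, the last reductase of cholesterol synthesis, was at 114 CPM in MiR-29ab1-/- mouse 3, and at 98.97 to 101 CPM in the others. Elovl6, the elongase, was at 54.2 CPM in WT mouse 1, and at 82.2 to 87.5 CPM in the others. Me1, malic enzyme, was at 35.8 CPM in MiR-29ab1-/- mouse 1, and at 27.2 to 28.4 CPM in the others. The difference between the genotype effects after and without DSS was 0.35 on the log2 scale for Insig2 (unadjusted p = 0.0373 by edgeR) and -0.48 for Acly (unadjusted p = 0.0212 by edgeR). Neither passed the adjusted threshold (adjusted p = 0.985 by edgeR).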

How the results depend on the processing

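The genotype comparisons rest on few mice, and no gene of the pathway passed an adjusted p of 0.05 by edgeR as fitted. After DSS, 1 gene did so with DESeq2 and with no filter on low counts (1 and 1), and 0 to 1 when a mouse was left out. The genes higher there numbered 2 with RLE factors, upper quartile factors, no filter or the adipocyte score (1 as fitted), and 1 to 3 with a mouse left out. Those lower numbered 0 with the epithelial score and 2 with the adipocyte score (4 as fitted), and 1 to 8 with a mouse left out. All genes at an unadjusted p of 0.05 numbered 1819 with no filter, 334 with the epithelial score (1078 as fitted) and 483 to 2530 with a mouse left out. Without DSS, 1099 genes passed with no filter (566 as fitted), and 479 to 692 with a mouse left out. Of the 34, 1 was higher with the epithelial score, 1 higher and 2 lower with the adipocyte score, and 0 to 1 higher and 0 to 2 lower with a mouse left out. For the interaction, leaving out a mouse gave 0 to 1 higher, 0 to 3 lower and 396 to 1468 genes in all (641 as fitted).

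Between experiments at an adjusted p of 0.05, the epithelial score left 0 higher, 3 lower and 292 genes in all in WT mice, and 1 higher, 4 lower and 231 genes in all in MiR-29ab1-/- mice. Leaving out a mouse gave 1 to 4 higher, 2 to 7 lower and 4634 to 6241 genes in WT mice, and 2 to 4 higher, 5 to 13 lower and 6052 to 7467 genes in MiR-29ab1-/- mice. Elovl6 reversed with the epithelial score, to -0.22 in WT and -0.21 in MiR-29ab1-/- mice, and Abca1 to 1.74 in MiR-29ab1-/- mice. The score did not overlap between the experiments, so that these values cannot be read apart from the experiment. The causes were not tested.

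The sign also turned where the fold change was near 0. Without DSS, Fasn (0.01 as fitted) was -0.028 with the adipocyte score and -0.069 to 0.20 with a mouse left out, being negative without WT mouse 1, 3 or 4 or MiR-29ab1-/- mouse 2, 3 or 4. Insig1 was -0.16 to 0.32, being negative without WT mouse 1 or 3 or MiR-29ab1-/- mouse 4, and Scap -0.069 to 0.020, being positive without the last. After DSS, Insig1 was 0.034 with the adipocyte score and -0.31 to 0.46 with a mouse left out, and Srebf2 -0.18 to 0.045, both being positive without WT mouse 2 or MiR-29ab1-/- mouse 1.

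Same-numbered WT and MiR-29ab1-/- mice without DSS did not deviate together: their correlations were -0.19 to 0.15, and 1 of 4 mice correlated best with its own number. Mice of other numbers correlated at -0.28 to 0.26. Pairing by number was thus not seen, but 4 mice of each genotype are too few to exclude it. With the replicate number as a block, 543 genes passed an unadjusted p of 0.05 and 0 of the 34, with Srebf1 at -0.21 (unadjusted p = 0.108 by edgeR), and the block changed no call. Leaving out the mitochondrial genes, an alternative chosen after seeing the data, changed no call in the genotype comparisons within either experiment; TMM factors leave it little room to move a value. The replicate block was not run after DSS, where the numbers of the columns and of the labels differ.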

Other observations

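Among the 40 other lipid genes, several moved between the experiments in both genotypes, where DSS and the experiment cannot be told apart. Gpam, which starts glycerolipid synthesis, fell by 2.17 on the log2 scale in WT mice and by 2.43 in MiR-29ab1-/- mice, from 49.7 to 11.02 CPM and from 54.3 to 10.1 CPM, though its length differs between the tables. Mlxipl, the carbohydrate-responsive activator of lipogenic genes, fell by 1.34 and 1.85 (adjusted p = 0.000554 and 3.76e-05 by edgeR). In contrast, Dgat2, which makes triglyceride, rose by 1.18 and 1.64 (adjusted p = 0.000677 and 3.76e-05 by edgeR), and Agpat2, which acylates lysophosphatidate, by 0.91 and 1.21. The pentose phosphate enzymes G6pdx (0.86 and 0.57) and Pgd (0.64 and 0.83), sources of NADPH, rose as well, as did Pparg (0.49 and 0.79) and Nr1h3, the gene of a liver X receptor (0.71 and 0.69). Of 20 other sterol genes, 4 were higher and 2 lower in WT mice and 2 higher and 9 lower in MiR-29ab1-/- mice, where 20% of all genes were higher and 17.9% lower in the former and 23% and 22.6% in the latter. Of 19 fatty acid and lipid genes tested, 6 were higher and 3 lower, and 7 higher and 5 lower.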
